A study of Ictalurus punctatus with 54 samples.

Results

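The comparison concerns channel catfish (Ictalurus punctatus) fingerlings that had recovered from copper sulfate before bacterial challenge, and asks how their gill transcriptome moved between 4 h and 24 h of infection. It holds 12 of the 54 gill libraries of the series, taken by their labels. The comparison itself was chosen with earlier results of these data known. The 6 Cu24h-24h fish were exposed to copper sulfate, kept 24 h, challenged with the bacterium that the labels call F. columnare and the study's methods call Flavobacterium covae, and sampled 24 h after challenge. The 6 Cu24h-4h fish had the same copper sulfate and the same challenge and were sampled 4 h after it. All 37586 transcripts of the deposited lists entered, and no uninfected group took part in the test.

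Every fish of both groups had been exposed to copper sulfate, so neither is an unexposed infection. The labels say that the fish were in copper sulfate for 24 h, and the methods in places speak of 24 h in static water and elsewhere of a static bath followed by 24 h of recovery in flowing freshwater. The labels give the dose as 2.1 mg/mL where the methods write mg/L. The methods name 3 replicate tanks per treatment but nothing links a fish to its tank, so fish that shared water cannot be told from fish that did not. No uninfected fish were sampled alongside the 24 h group. The methods say that feed was withheld from 24 h before the treatments and during them. Hours since challenge, hours since copper sulfate and hours without feed therefore cannot be told apart. The fish are called fingerlings, and no age was found for them in the labels or methods.

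The gill is the fish's respiratory and ion-regulating organ and a mucosal barrier in direct contact with the water. Flavobacterium species of the columnaris group colonise gill and skin, and columnaris disease erodes both. Copper ions act on the same surface, where they disturb sodium transport and mucus, and copper sulfate is used in ponds against algae, parasites and bacteria. In bulk gill RNA, fewer cells of a type and less RNA per cell cannot be told apart.

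The deposited values name transcripts only by Ensembl identifiers, and 0 of the 37586 were paired with a gene symbol in the sources used here. Functions, pathways, cell type markers and sequences are therefore not described, the identity of the tissue could not be checked against marker genes, and 4 transcripts that met a fixed rule are named by identifier. Values are effective counts, that is, estimated read counts per transcript corrected by the quantification program and rounded. CPM are these counts scaled to a common library size, where the size is the library's total multiplied by a TMM factor (a correction for composition, computed here over the 54 libraries). Shares of counts use the plain totals.

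Totals were 475411 to 1017409 counts in the Cu24h-24h libraries (median 793604) and 554741 to 865300 in the Cu24h-4h libraries (median 754767), within the 352013 to 1190864 of the 54 libraries. The 12 fish fell apart by hour on the first principal component, which held 26% of the variance. The Cu24h-24h fish scored 32.6 to 45.2 on it and the Cu24h-4h fish -54.2 to -7.94. Cu24h-4h replicate 3 was the fish at -7.94, and the other 5 Cu24h-4h fish lay at -30.7 or below. With this fish left out the step had 1079 differentially expressed transcripts in place of 905. On the second component, which held 10.5% of the variance, Cu24h-24h replicate 6 stood apart at -49.1. Its group mates lay at -1.71 to 6.01, and the Cu24h-4h fish spread from -42.0 to 35.4. Replicate 6 was also the Cu24h-24h library with 475411 counts, and without it the step had 936 differentially expressed transcripts. Among the uninfected Cu24h fish, which are quoted for levels only, replicates 1 and 3 stood apart. They had 11334 to 12927 transcripts detected at equal depth, against 17380 to 18826 in the other 4, and 46.8 to 49.8% of counts in their 100 most abundant transcripts, against 29.6 to 34.4%.

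Between 4 h and 24 h the recovered gill changed broadly and about equally in both directions. Of 7342 transcripts with enough counts to test, 905 were differentially expressed (DEGs, FDR below 0.05 and a log2 fold change beyond 1 in either direction), which is 12.3%. In Cu24h-24h fish 456 transcripts were upregulated (6.21%) and 449 downregulated (6.12%) relative to Cu24h-4h fish, by edgeR's quasi-likelihood F-test with Benjamini-Hochberg adjustment. The unadjusted p was below 0.05 for 2379 transcripts, and the median log2 fold change over all 7342 was 0.01. TMM scaling draws this median towards 0, so it does not speak for a balance of the directions.

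Most DEGs changed by a moderate amount, though the call itself required a log2 fold change beyond 1. A further 413 transcripts had FDR below 0.05 but a log2 fold change within 1 in either direction, and they count as not called. The upregulated DEGs had a median log2 fold change of 1.39, with the middle of the distribution between 1.17 and 1.76 and the highest at 5.49. The downregulated DEGs had a median of -1.46, a middle range of -1.85 to -1.23 and a lowest value of -7.76. A log2 fold change beyond 2 was reached by 70 rising and 88 falling DEGs, and one beyond 4 by 2 rising and 5 falling DEGs.

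Which direction prevailed varied with abundance. Among the 1910 transcripts averaging under 20 CPM over the 12 fish, 4.76% rose and 2.98% fell. Among the 1141 between 50 and 100 CPM, 7.89% rose and 8.33% fell. Among the 272 at 500 CPM or more, 3.31% rose and 9.93% fell, so that 27 abundant transcripts fell and 9 rose. Some abundant falling DEGs had nearly equal changes and are counted separately. Examples are ENSIPUT00000019948 and ENSIPUT00000019935 (log2 fold changes -1.52 and -1.51), and ENSIPUT00000029053 and ENSIPUT00000029098 (both -1.31). These shares are descriptions of the fitted calls and no test of the trend was run.

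**Figure D1:**
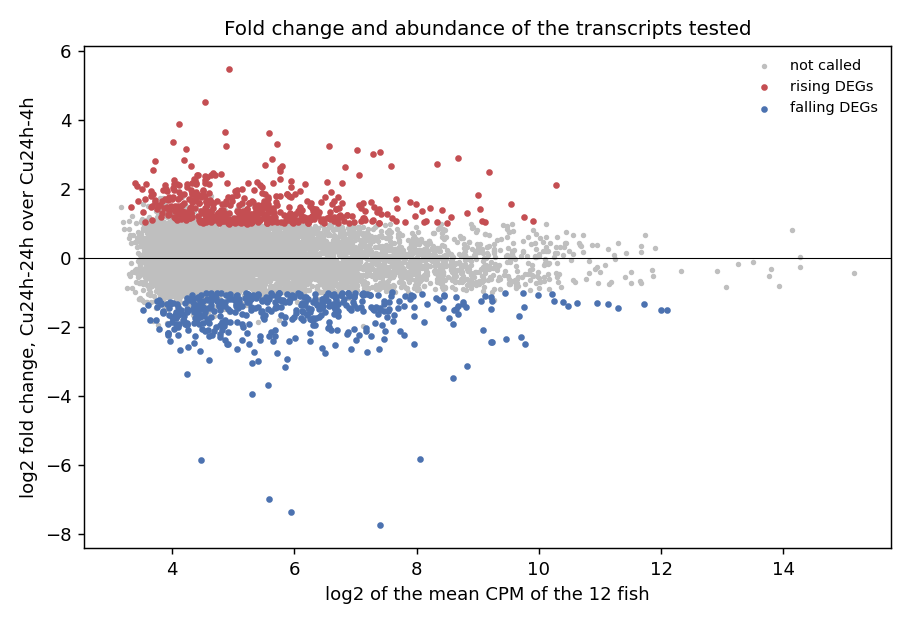
Each point is 1 of the 7342 transcripts tested, with the log2 of its mean CPM over the 12 fish on the x axis and its log2 fold change (Cu24h-24h over Cu24h-4h) on the y axis. The 456 rising DEGs and 449 falling DEGs spread on both sides of 0, and at 500 CPM or more falling DEGs (27) outnumber rising DEGs (9).

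A stricter view uses transcripts whose fish did not overlap. It uses the same 12 fish as the calls, and fits that leave out a single fish share the rest. Both are therefore descriptions of the DEGs and no independent support. For 538 of the 7342 transcripts (7.33%), all 6 fish of one group lay above all 6 fish of the other in CPM. Among the 905 DEGs this held for 375 (41.4%), of which 187 rose and 188 fell. Of the DEGs, 524 (57.9%; 243 rising and 281 falling) were called again in each of the 12 fits that left out a single fish, and 305 met both conditions. Near the threshold, the largest FDR among DEGs was 0.0498, and 364 transcripts with a log2 fold change beyond 1 were not called, the smallest FDR among these being 0.0503.

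ENSIPUT00000010095 had the smallest p of the eligible transcripts that rose. Its lowest, median and highest CPM were 156.0, 171 and 238 in Cu24h-24h fish, against 33.3, 40.0 and 52.8 in Cu24h-4h fish. Only DEGs whose groups did not overlap could be named. For all 4 named transcripts that separation is therefore part of the choice and no finding. Its mean was 179.7 ± 30.3 CPM in Cu24h-24h fish and 40.0 ± 7.0 CPM in Cu24h-4h fish (SD, n = 6 each), a log2 fold change of 2.17 (SE 0.20, edgeR adjusted p = 3.34e-06). ENSIPUT00000010095 averaged 29.3 ± 15.6 CPM in the uninfected Cu24h fish and 42.0 ± 26.9 CPM at 1 h (SD, n = 6 each), so the 4 h level lay inside the spread of both earlier groups.

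ENSIPUT00000021687 rose in the same way. Its lowest, median and highest CPM were 184, 213 and 315 in Cu24h-24h fish, against 31.0, 40.9 and 60.0 in Cu24h-4h fish. The lowest 24 h fish was above the highest 4 h fish, as the rule for naming required. Means were 224 ± 48.5 CPM in Cu24h-24h fish and 42.4 ± 10.03 CPM in Cu24h-4h fish (SD, n = 6 each), and the log2 fold change was 2.41 (SE 0.22, edgeR adjusted p = 3.34e-06). ENSIPUT00000021687 averaged 24.4 ± 20.5 CPM in Cu24h fish and 73.2 ± 53.2 CPM at 1 h (SD, n = 6 each), where 1 fish reached 169 CPM.

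ENSIPUT00000002229 fell, and had the smallest p of all 7342 transcripts. Its lowest, median and highest CPM were 67.0, 88.7 and 130.3 in Cu24h-24h fish, against 449, 802 and 1144 in Cu24h-4h fish. By the same rule the groups did not overlap, and Cu24h-4h replicate 3 was the lowest of the 4 h fish. Means were 94.1 ± 25.2 CPM in Cu24h-24h fish and 814 ± 248 CPM in Cu24h-4h fish (SD, n = 6 each), a log2 fold change of -3.12 (SE 0.24, edgeR adjusted p = 9.36e-07). ENSIPUT00000002229 averaged 167 ± 152 CPM in Cu24h fish and 524 ± 256 CPM at 1 h (SD, n = 6 each). Without Cu24h replicate 3 the Cu24h mean was 108 ± 53.1 CPM (SD, n = 5), and without replicates 1 and 3 it was 86.7 ± 26.2 CPM (SD, n = 4), so the 24 h level is not placed against uninfected Cu24h fish. The 4 h mean was the highest of the 9 groups of the series.

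ENSIPUT00000030291 also fell but had already been lower before 4 h. Its lowest, median and highest CPM were 228, 252 and 367 in Cu24h-24h fish, against 1037, 1372 and 1715 in Cu24h-4h fish. Here too the separation of the groups was part of the choice. Means were 283 ± 60.4 CPM in Cu24h-24h fish and 1383 ± 302 CPM in Cu24h-4h fish (SD, n = 6 each), a log2 fold change of -2.29 (SE 0.18, edgeR adjusted p = 9.36e-07). ENSIPUT00000030291 averaged 7219 ± 3656 CPM in the uninfected Cu24h fish and 1084 ± 287 CPM at 1 h (SD, n = 6 each). The fish of 1 h and 4 h overlapped, and the 24 h mean was the lowest of the 9 groups.

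**Figure D2:**
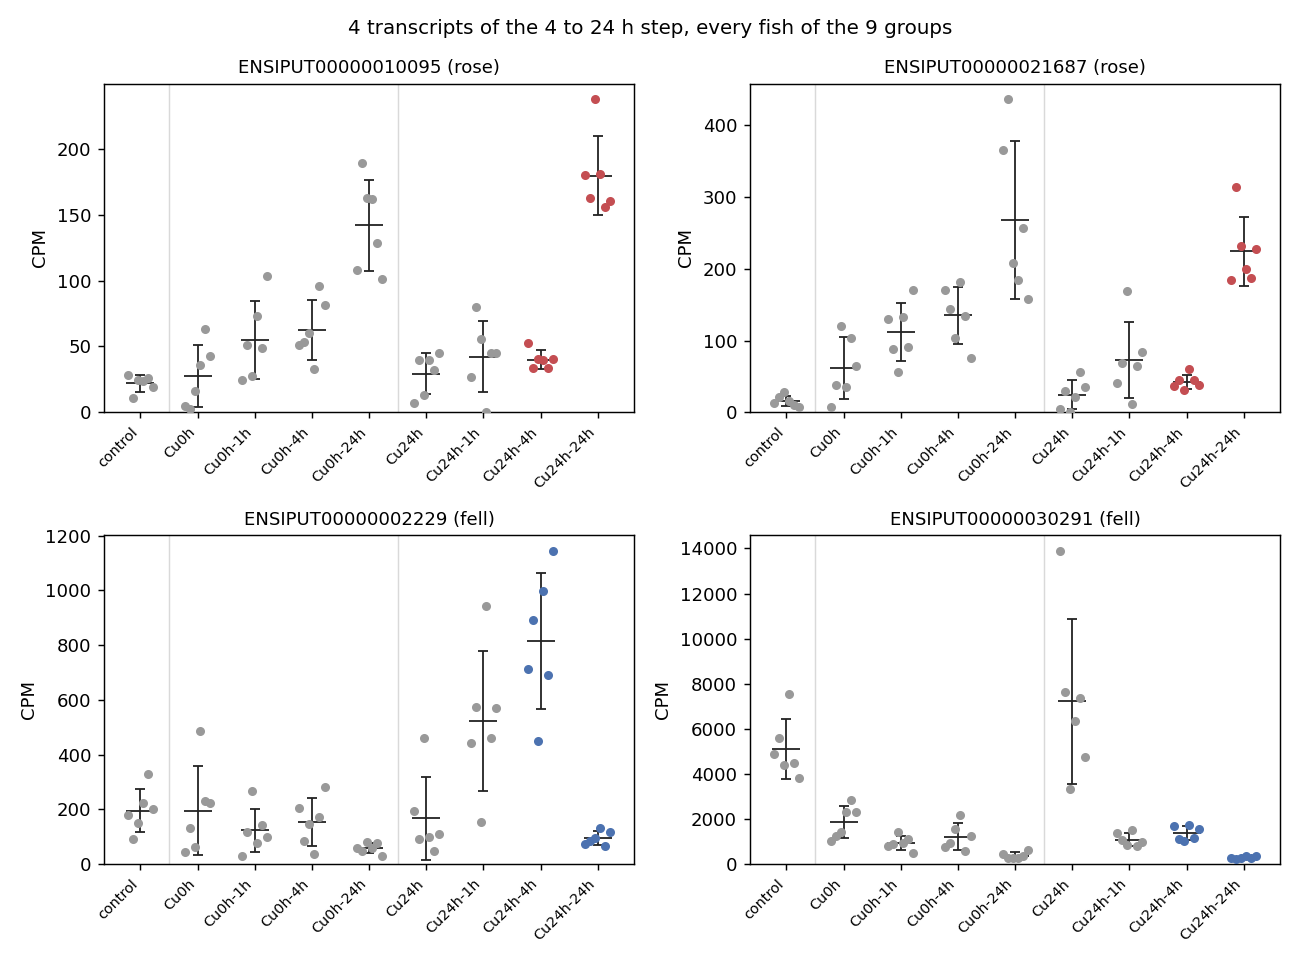
CPM of the 4 named transcripts in each of the 54 fish, with the 9 groups on the x axis, each point 1 fish and the bar and whiskers the mean ± SD of 6 fish. In the coloured groups no Cu24h-24h fish overlaps a Cu24h-4h fish, which the rule for naming required. ENSIPUT00000002229 is highest at Cu24h-4h (814 CPM) and ENSIPUT00000030291 in uninfected Cu24h fish (7219 CPM).

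Over single libraries none of the 4 had a near copy. Over the 9 groups their closest matches were higher, at a Pearson r of 0.959 to 0.995, so their group profiles are not particular to them. Over the 54 libraries the closest other tested transcript correlated in log2(CPM + 1) at 0.82 for ENSIPUT00000010095, 0.89 for ENSIPUT00000021687, 0.81 for ENSIPUT00000002229 and 0.93 for ENSIPUT00000030291 (Pearson, across libraries). Among all tested transcripts 65 had counts in the 12 libraries identical to those of another transcript, 6 of them DEGs, and 35 DEGs (3.87%) correlated above 0.99 with another tested transcript. Such transcripts may be isoforms or copies that share reads, and the number of DEGs counts them separately.

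The DEGs held a shifting part of all counts. The 456 rising DEGs took 5.17 ± 0.63% of the counts of Cu24h-24h fish and 1.69 ± 0.35% of those of Cu24h-4h fish (SD, n = 6 each), with ranges of 4.43 to 6.12% and 1.26 to 2.28%. The 449 falling DEGs took 4.00 ± 0.25% in Cu24h-24h fish and 10.3 ± 1.27% in Cu24h-4h fish (SD, n = 6 each), with ranges of 3.69 to 4.39% and 7.86 to 11.3%. These shares follow from how the DEGs were called and are given as sizes, without a test.

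The shares of the same DEGs in fish that played no part in the calls are given as sizes, without a test. The rising DEGs held 1.52 ± 0.60% of counts in uninfected Cu24h fish and 1.79 ± 0.36% at 1 h, close to the 4 h share. Without Cu24h replicates 1 and 3 the Cu24h share was 1.90 ± 0.17% (SD, n = 4). The falling DEGs held 10.9 ± 0.73% in Cu24h fish and 8.66 ± 1.23% at 1 h (SD, n = 6 each), and without those 2 fish the Cu24h share was 10.6 ± 0.56% (SD, n = 4). In control fish, sampled before any treatment, the shares were 0.99 ± 0.10% for rising DEGs and 11.2 ± 0.30% for falling DEGs. With or without those 2 fish, the mean shares of Cu24h fish lay nearer to those of Cu24h-4h fish than to those of Cu24h-24h fish. The DEGs were chosen for a change after 4 h, so transcripts that moved before 4 h and then held steady are left out. These shares therefore do not show how near the 4 h gill as a whole was to the uninfected gill.

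**Figure D3:**
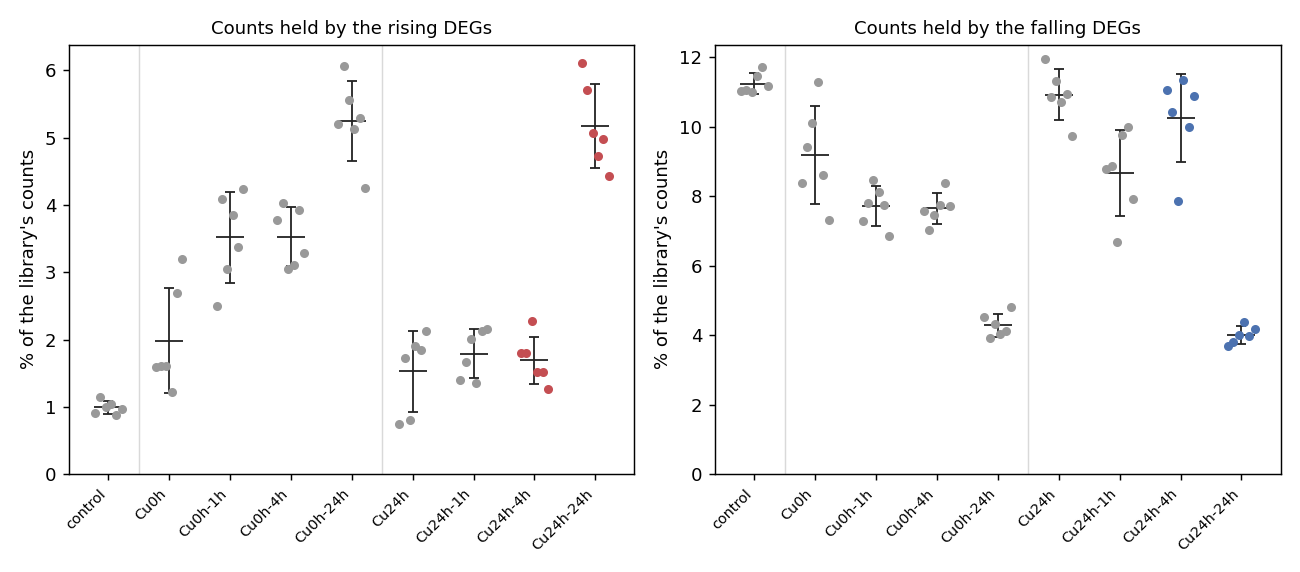
Percent of each library's counts held by the 456 rising DEGs (left) and the 449 falling DEGs (right), 1 point per fish, 9 groups on the x axis, bars and whiskers the mean ± SD of 6 fish. The coloured groups are those that chose the DEGs. Cu24h-24h stands at 5.17% and 4.00%, Cu0h-24h at 5.25% and 4.28%.

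Taken transcript by transcript, the median level of the rising DEGs was 17.5 CPM in Cu24h fish, 21.2 CPM at 1 h, 20.03 CPM at 4 h and 52.5 CPM at 24 h. The median level of the falling DEGs was 64.2 CPM in Cu24h fish, 55.1 CPM at 1 h, 76.9 CPM at 4 h and 26.4 CPM at 24 h. On the log2(CPM + 1) scale, 452 of the rising DEGs (99.1%) had a 24 h mean above the Cu24h mean, and 244 (53.5%) had their highest mean of all 9 groups at Cu24h-24h. Of the tested transcripts that were not called and had a fold change above 0, these shares were 83.6% and 24.5%. Of the falling DEGs, 409 (91.1%) had a 24 h mean below the Cu24h mean and 177 (39.4%) their lowest mean of all groups at Cu24h-24h, beside 61.6% and 13.1% of the uncalled transcripts with a fold change below 0. Without Cu24h replicates 1 and 3, 438 rising DEGs lay above and 390 falling DEGs below the Cu24h mean. The Cu24h medians without these 2 fish were 20.5 CPM for rising and 59.5 CPM for falling DEGs. For 168 falling DEGs (37.4%) the 4 h mean was the highest of the 9 groups, beside 19.3% of those uncalled transcripts. For 33 rising DEGs (7.24%) it was the lowest of the 9 groups, beside 6.79% of the uncalled transcripts with a fold change above 0. The 4 h and 24 h levels chose the DEGs, so these counts describe them and are no test.

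Fewer DEGs were called in the earlier step of the same schedule, but a difference in these counts is not itself a test. The Cu24h-1h libraries were shallower (median 541036 counts), and fewer transcripts were tested. With all libraries thinned to equal depth, the earlier step had 67 DEGs and the later step 570. From 1 h to 4 h, 107 of 6150 tested transcripts were DEGs (1.74%; 45 upregulated, 0.732%, and 62 downregulated, 1.01%) in Cu24h-4h fish relative to Cu24h-1h fish, and 872 had an unadjusted p below 0.05. Groups did not overlap for 93 transcripts (1.51%). Both steps use the 6 Cu24h-4h libraries, so no overlap between their lists is given.

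Where each fish lay between the hours was read from transcripts it had no part in choosing. The step was refitted without the fish, and the fish was placed on the new DEGs on a scale where 0% is the mean of the other 4 h fish and 100% the mean of the other 24 h fish in log2(CPM + 1). On the rising DEGs the Cu24h-24h fish stood at 70.7 to 104% and the Cu24h-4h fish at -1.09 to 19.5%, except Cu24h-4h replicate 3, which stood at 46.5%. On the falling DEGs the Cu24h-24h fish stood at 83.7 to 98.7% and the Cu24h-4h fish at 0.60 to 15.8%, again except replicate 3, at 39.9%. No 4 h fish reached any 24 h fish in either direction. The other fish chose these DEGs, which draws the 0% and 100% marks apart, so a left-out fish tends to lie between them. A place short of a mark therefore does not show that a fish lagged.

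**Figure D4:**
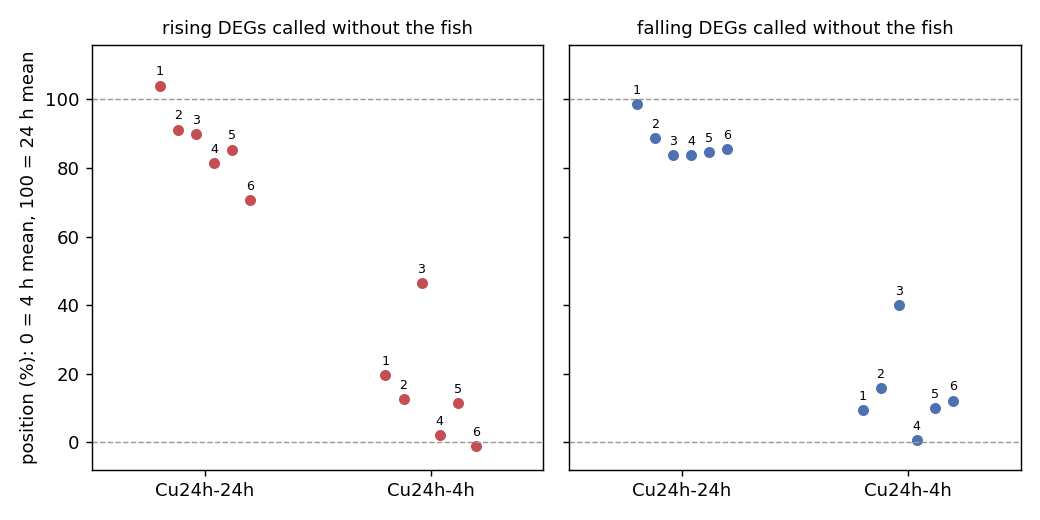
Position of each fish, numbered by replicate, on the DEGs called without it, where 0% is the mean of the other Cu24h-4h fish and 100% the mean of the other Cu24h-24h fish. Rising DEGs are on the left and falling DEGs on the right. All Cu24h-24h fish lie at 70.7% or above, and Cu24h-4h replicate 3 lies at 46.5% and 39.9% while its group mates lie at 19.5% or below.

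The fish of each group resembled each other more than those of the other hour. The median Spearman correlation across transcripts was 0.77 among Cu24h-24h fish and 0.75 among Cu24h-4h fish (15 pairs each), and 0.66 over the 36 pairs between the groups. These are across transcripts within pairs of libraries, and transcripts are not independent replicates. The biological coefficient of variation was 0.40 in Cu24h-24h fish and 0.45 in Cu24h-4h fish.

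The number of transcripts detected did not separate the hours. At an equal depth of 352013 counts, 16540 ± 530 transcripts were detected in Cu24h-24h fish and 16222 ± 408 in Cu24h-4h fish (SD, n = 6 each, exact permutation p = 0.251, two-sided, adjusted p = 0.251 over 2 measures). The 100 most abundant transcripts of each fish held 34.6 ± 2.03% of the counts in Cu24h-24h fish and 37.4 ± 1.72% in Cu24h-4h fish (SD, n = 6 each). This difference of -2.82 percentage points had an exact permutation p of 0.0346 (two-sided, smallest possible 0.00216) and an adjusted p of 0.0693, which missed the threshold.

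The most abundant transcripts were largely the same at both hours. The lists of the 100 highest by group mean shared 74 transcripts and were headed by the same transcript, and of the 126 in either list 4 were rising and 18 falling DEGs (17.5%, beside 12.3% of all tested). A transcript entered if it ranked among the 100 at either hour, and that choice favours transcripts that changed. The 17.5% is therefore a description and no sign of more change among abundant transcripts. Transcripts with nearly equal changes are again counted separately. At the other end, 16 transcripts were at 0 in every Cu24h-4h fish and counted in every Cu24h-24h fish, with 6 to 115 counts over the 6 fish (median 19). The reverse held for 3 transcripts, with 34 to 75 counts (median 37). Among the 16, ENSIPUT00000028380 and ENSIPUT00000028391 had equal values in these fish, as did ENSIPUT00000038543 and ENSIPUT00000038547. They are counted separately but may share reads. None of these 19 passed the filter on low counts, so none has a test, and no fold is given.

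The same interval was also sampled in fish challenged immediately after copper sulfate, and these share no library with the recovered fish. At equal hours after challenge the schedules differed in hours since copper sulfate, because the recovered fish were kept 24 h before challenge. Relative to the 6 Cu0h-4h fish, the 6 Cu0h-24h fish had 98 DEGs among 8741 tested (1.12%), 68 upregulated (0.778%) and 30 downregulated (0.343%), with 997 unadjusted p below 0.05. The groups did not overlap for 137 transcripts (1.57%). The recovered step thus had 905 DEGs where the immediate step had 98, but a difference in these counts is not itself a test, and the transcripts tested differed. The biological coefficient of variation was 0.47 in Cu0h-24h fish and 0.50 in Cu0h-4h fish, against 0.40 in Cu24h-24h and 0.45 in Cu24h-4h fish. Each was computed over the transcripts tested in the recovered step, and its part in the counts was not tested. In each immediate group 1 library stood apart. Cu0h-4h replicate 4 had 13376 transcripts detected at equal depth and Cu0h-24h replicate 6 had 13633, against 16022 or more in their group mates. Their 100 most abundant transcripts held 40.2% and 40.6% of counts, against 35.4% or less. Without Cu0h-4h replicate 4 the immediate step had 111 DEGs, and without Cu0h-24h replicate 6 it had 138.

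Most DEGs of the recovered step leaned the same way in the immediate step, less steeply. Of the 442 rising DEGs tested in both, 340 (76.9%) had a positive fold change in the immediate step, and 31 were DEGs there. Their median log2 fold change was 1.38 in the recovered step and 0.36 in the immediate step. Of 418 falling DEGs, 332 (79.4%) had a negative fold change there and 23 were DEGs, with a median log2 fold change of -1.44 in the recovered and -0.45 in the immediate step. No DEG of the recovered step was called in the opposite direction. Among uncalled transcripts the same sign was seen for 57.6% of those above 0 and 59.6% of those below 0. Of these, 22 of 3126 above 0 and 4 of 3012 below 0 were DEGs of the immediate step in the same direction. Over all transcripts tested in the immediate step, 0.778% were upregulated and 0.343% downregulated DEGs.

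A list chosen in the recovered fish is bound to look larger there, so the immediate DEGs were read in turn. Of the 68 that rose in the immediate step 62 were tested in recovered fish, and 53 had a positive fold change and 31 were called up. Their median log2 fold change was 1.13 in the recovered and 2.00 in the immediate step. Of the 30 that fell, 28 were tested, 27 had a negative fold change and 23 were called down, with medians of -1.71 in the recovered and -1.73 in the immediate step. Over all 7342 transcripts tested in the recovered step, 6.21% were called up and 6.12% down, and the median log2 fold change was 0.01. The 54 DEGs called in both steps make up 5.97% of the recovered and 55.1% of the immediate list, and all 54 moved in the same direction. Across the 6998 transcripts tested in both steps the fold changes correlated at a Pearson r of 0.39 and a Spearman rho of 0.34, given as a description.

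**Figure D5:**
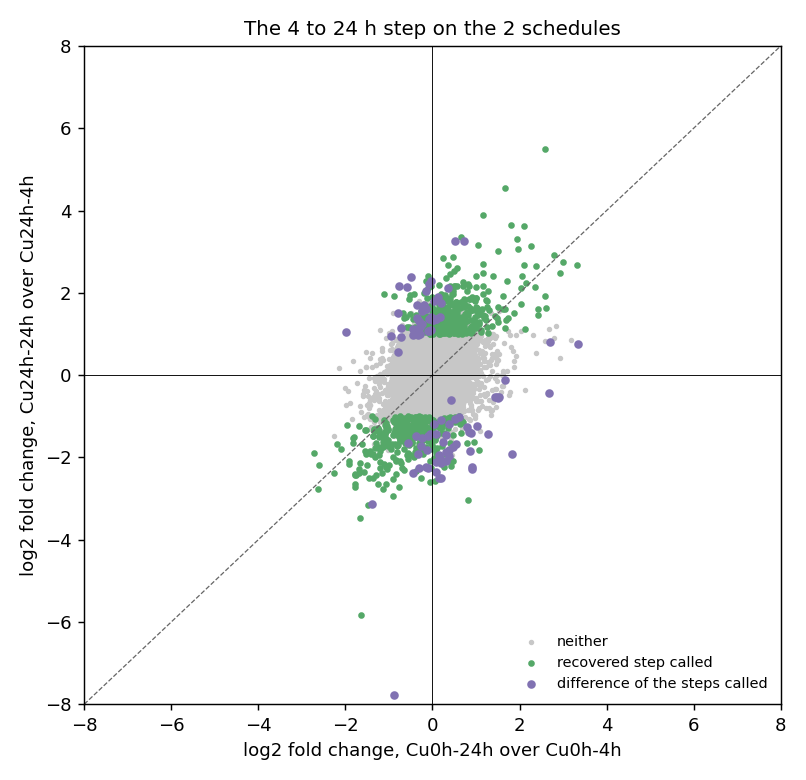
Each point is 1 of 6998 transcripts tested on both schedules, with the log2 fold change from 4 to 24 h after immediate challenge on the x axis and after recovery on the y axis. The dashed line marks equal change. Recovered DEGs lie mostly in the quadrants of shared sign (340 of 442 rising, 332 of 418 falling) and farther from 0 on the y axis, which also chose them.

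The difference between the steps was tested itself in a single fit of the 24 libraries. The recovered and the immediate step differed for 111 of 10685 transcripts (1.04%; difference above 0 for 54, 0.505%, and below 0 for 57, 0.533%), with 1523 unadjusted p below 0.05. The older edgeR quasi-likelihood method called 52, all of them among the 111. On simulated data the method behind the 111 made more false calls in this comparison than the older one, so the 111 may hold a larger false share than its FDR threshold states. Leaving out 1 fish gave 65 to 144. Of the 111, 82 were DEGs of the recovered step, 10 of the immediate step and 19 of neither, and none was a DEG of both. In 83 the changes of the group means had opposite signs on the 2 schedules. Many of these signs rest on changes near 0, so 83 is no count of reversed responses. Among the 82, the median immediate log2 change was -0.14 for rising and 0.20 for falling DEGs.

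Where the step of a recovered DEG was called different between schedules, it was the larger in recovered fish. This held for 38 of the 456 rising DEGs (8.33%) and 44 of the 449 falling DEGs (9.80%), and for none was the recovered step called smaller. With the older method it held for 22 rising and 18 falling DEGs. Since the recovered step also chose these DEGs, the direction is given as a description. Read in turn, the 10 immediate DEGs with a called difference (9 rising, 1 falling) all had the larger step in immediate fish, which their choice likewise favours. Over both directions their median log2 fold change of group means was -0.50 in the recovered and 1.57 in the immediate step. ENSIPUT00000018244, ENSIPUT00000018207, ENSIPUT00000018175 and ENSIPUT00000018158 had nearly equal steps (-0.56 to -0.53 recovered, 1.41 to 1.51 immediate). They are counted separately but may share reads.

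The levels of these 82 DEGs are given as sizes only. They were chosen for a large recovered step that differed from the immediate one, so a small immediate step follows from the choice. The median of the 38 rising DEGs was 107 CPM in Cu24h-24h fish and 41.5 CPM in Cu24h-4h fish, against 114 CPM in Cu0h-24h fish and 112 CPM in Cu0h-4h fish. The 44 falling DEGs had medians of 41.4 CPM in Cu24h-24h fish and 154 CPM in Cu24h-4h fish, against 65.1 CPM in Cu0h-24h fish and 58.4 CPM in Cu0h-4h fish. In uninfected Cu24h fish the medians were 31.1 CPM for the 38 and 67.5 CPM for the 44. Without Cu24h replicates 1 and 3 they were 34.1 and 74.0 CPM.

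The full lists were chosen by the recovered step alone. That choice draws the Cu24h-24h and Cu24h-4h levels apart and leaves the immediate levels free. Gaps between the schedules are therefore given as sizes, without a test. The rising DEGs had a median of 52.5 CPM in Cu24h-24h fish and 20.03 CPM in Cu24h-4h fish, and 48.8 CPM in Cu0h-24h fish and 37.4 CPM in Cu0h-4h fish. The falling DEGs had 26.4 CPM in Cu24h-24h fish and 76.9 CPM in Cu24h-4h fish, and 30.9 CPM in Cu0h-24h fish and 43.0 CPM in Cu0h-4h fish. In share of counts, the rising DEGs stood at 5.17% in Cu24h-24h fish and 5.25 ± 0.59% in Cu0h-24h fish, and at 1.69% in Cu24h-4h fish and 3.53 ± 0.44% in Cu0h-4h fish (SD, n = 6 each).

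Of the named transcripts, ENSIPUT00000030291 fell on both schedules. After immediate challenge it averaged 375 ± 140 CPM in Cu0h-24h fish and 1206 ± 593 CPM in Cu0h-4h fish (SD, n = 6 each), a log2 fold change of -1.70 (SE 0.31, edgeR adjusted p = 0.00741). Its difference of the steps was -0.62 (SE 0.38, edgeR adjusted p = 0.474). ENSIPUT00000010095 averaged 142 ± 34.8 CPM in Cu0h-24h fish and 62.5 ± 22.5 CPM in Cu0h-4h fish (SD, n = 6 each), a log2 fold change of 1.17 (SE 0.25, edgeR adjusted p = 0.0231). Its difference of the steps was 0.97 (SE 0.32, edgeR adjusted p = 0.136), so each of these moved the same way on both schedules without a called difference.

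ENSIPUT00000021687 averaged 268 ± 110.1 CPM in Cu0h-24h fish and 135 ± 39.7 CPM in Cu0h-4h fish (SD, n = 6 each), with a log2 fold change of 1.01 (SE 0.28, edgeR adjusted p = 0.100). Its difference of the steps was 1.37 (SE 0.37, edgeR adjusted p = 0.0670), which missed the threshold. ENSIPUT00000002229 averaged 58.3 ± 19.2 CPM in Cu0h-24h fish and 155 ± 87.1 CPM in Cu0h-4h fish (SD, n = 6 each), with a log2 fold change of -1.40 (SE 0.36, edgeR adjusted p = 0.0690). Its difference of the steps was -1.76 (SE 0.45, edgeR adjusted p = 0.0470), and this call was lost in 18 of the 24 fits that left out a single fish.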

How the data were processed

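Gill RNA of 6 fish per group was sequenced, and the authors deposited 1 list of effective counts per fish, that is, expected counts per transcript rounded to whole numbers. The submitters' processing notes name Trim Galore 0.5.0, Bowtie2 2.3.4.3, eXpress 1.5.1 and DESeq2 1.24.0. The study's methods describe another pipeline, and no transcript release is named in the labels, methods or file headers. The lists were joined by identifier and tested in R 4.3.3 with edgeR 4.0.16: filterByExpr (minimum count 10, minimum total 15), TMM scaling and the current quasi-likelihood F-test (legacy turned off), with Benjamini-Hochberg adjustment. The 7342 transcripts tested held 92.3% of the counts of the 12 libraries, 22120 with counts failed the filter and 8124 were at 0. DEGs had FDR below 0.05 and a log2 fold change beyond 1. Fold changes at few counts depend on edgeR's prior count.

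Named transcripts were the 2 rising and 2 falling DEGs with the smallest p among those with non-overlapping groups and at least 50 CPM over the 12 fish (121 rising and 134 falling were eligible). The comparison, the transcripts and the tests were chosen with earlier results of these data known. Fish are separate animals per the labels; no same-group pair among the 12 agreed within counting noise (smallest chi-square 5.38 per transcript over 30 pairs). Scripts were tested on simulated data. Alternatives were DESeq2 1.42.0 size factors, its Wald test, no filter, a joint fit of all 9 groups, a block for the replicate number, edgeR's older quasi-likelihood method, libraries thinned to 352013 counts, limma 3.58.1 voom with library weights and leaving out each fish.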

Additional observations from a re-analysis of the deposited data

Results flagged for a closer look

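Single fish stood apart from their group in 5 of 50 sets of 6 values examined. A rate of about 1 set in 20 by chance would need independent sets, and these sets share fish. The 5 are therefore not set against that rate. ENSIPUT00000010095 stood at 238 CPM in Cu24h-24h replicate 3, above the other 5 fish of that group, and at 52.8 CPM in Cu24h-4h replicate 1. ENSIPUT00000021687 stood at 315 CPM in Cu24h-24h replicate 2. ENSIPUT00000002229 stood at 461 CPM in replicate 3 of the uninfected Cu24h fish. Placed on the falling DEGs called without it, Cu24h-24h replicate 1 stood at 98.7%, above the other fish of its group. Leaving out any of the 12 fish kept the 2 rising and 2 falling named transcripts past the threshold of the recovered step. Their choice by smallest p favours this.

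The step from 4 to 24 h was called different between the recovered and the immediate schedule for 111 of 10685 transcripts (1.04%), by the test of the difference itself in edgeR. The older edgeR method called 52, and the 111 may hold a larger false share than the FDR threshold states. Of the named transcripts a difference of the steps was called for ENSIPUT00000002229, with a log2 difference of -1.76 (edgeR adjusted p = 0.047, from 0.0151 to 0.0896 with 1 fish left out).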

How the results depend on the processing

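The 4 named transcripts kept their direction and their call in the recovered step under all 8 alternatives and with any of the 12 fish left out. They were chosen for the smallest p and separate groups, so this does not speak for the other DEGs. The recovered step's number of DEGs, 905, was 570 with libraries thinned to equal depth and 1620 without the low-count filter, and 682 to 1001 under the other 6 alternatives. The members changed more than the totals. Of the 905, 692 were among the 1001 of the joint fit, 772 among the 1620, 633 among the 682 of limma-voom and 495 among the 570. The number of DEGs ran from 757 to 1079 with 1 fish left out. The immediate step, 98 DEGs, gave 444 without the filter, 184 with all 9 groups in 1 fit and 70 to 138 with 1 fish left out. The difference of the steps, 111, was 207 with DESeq2's Wald test, 316 without the filter and 52 with the older edgeR method. It was 65 without Cu24h-24h replicate 1, 71 without Cu24h-24h replicate 2, 72 without Cu24h-4h replicate 1 and 67 without Cu0h-4h replicate 5, and reached 144 without Cu0h-4h replicate 4. From 1 to 4 h, 107 DEGs became 479 without the filter, 50 with all 9 groups in 1 fit (44 up, 6 down), 67 with thinned libraries and 39 with limma-voom, and 76 to 130 with 1 fish left out. The cause was not tested, except that thinning, the filter, the joint fit of all groups and leaving out a fish each change how many transcripts are tested.

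The replicate numbers do not pair the fish: deviations of fish with the same number correlated at -0.05 to 0.09. With the replicate number as a block, the recovered step had 776 DEGs, the immediate step 64, the difference 110 and the step from 1 to 4 h 110. The log2 difference of the steps of ENSIPUT00000002229, called at -1.76, was not called with all 9 groups in 1 fit (-1.76), the block (-1.82) or the older method (-1.74). That of ENSIPUT00000021687, 1.37, was called with DESeq2's Wald test (1.39) and the block (1.40). The share of counts in the 100 most abundant transcripts differed by -2.82 points, by -1.08 points for the 10 most abundant (exact permutation p = 0.225), by -3.28 points for the 1000 most abundant (exact permutation p = 0.0433), and by -3.47 to -2.29 points with 1 fish left out, where 8 of 12 fits had an exact p above 0.05. The difference in detected transcripts, 318, was 610.5 when at least 3 counts were asked for (exact permutation p = 0.0823), 298 at the libraries' own depth (exact permutation p = 0.565) and 157 to 462 with 1 fish left out. Leaving out Cu24h replicates 1 and 3 was chosen after seeing the data. Depth leaves 22120 transcripts with counts but no test.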
